A study of Mus musculus with 107 samples.

Results

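Mixed oligodendroglia and mature oligodendrocytes of the mouse cerebellum were compared through the RNA carried on their ribosomes. The 6 arrays were chosen by their labelled population, 3 for each, from the 107 arrays of a series that covered 24 purified populations from the mouse brain and spinal cord together with unbound RNA. All mice carried a bacterial artificial chromosome (BAC) transgene for translating ribosome affinity purification (TRAP), in which the regulatory region of a driver gene puts an affinity tag on the ribosomes of the cells where it is active. The mixed population came from the olig2 driver, line JD97, and the mature population from the cmtm5 driver, line JD307. Each population rests on 1 mouse line, so the line and the cell population cannot be told apart, and the labels give no age, sex or strain. RNA that was left in the tissue lysate after purification (unbound RNA) stands for the cerebellum as a whole. It was measured on 7 arrays, of which 1 came from the cmtm5 line, 3 from the pcp2 driver used for Purkinje neurons (line DR168) and 3 from the septin4 driver used for Bergmann glia (line DS152). None of the unbound cerebellum arrays came from the olig2 line.

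Oligodendrocytes wrap axons in myelin and arise from progenitor cells that divide, migrate and persist in the adult brain. Progenitors respond to platelet-derived growth factor through its alpha receptor, Pdgfra, and cells that commit to differentiation pass through a short stage that expresses the receptor Gpr17 before they build myelin. The transcription factor Olig2 is present from progenitor to mature cell, whereas Cmtm5 encodes a membrane protein found mainly in cells that have already made myelin.

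Values are log2 microarray intensities, shifted by 1 constant for each group so that the biotinylated hybridisation controls of the array have the same mean in all groups. A gene counted as expressed at a group mean of at least 6, and genes expressed in either population were tested in a linear model (limma, Benjamini-Hochberg adjustment over all genes tested). A call required an adjusted p under 0.05 together with a difference of at least 2-fold. Where the lower group lay under the minimum, the fold was computed against the level of 6 and is given as "at least". Differences are mixed minus mature on the log2 scale with their standard error (SE). Replicates were separate TRAP preparations, per the series text. The SE and p-values rest on a spread for each gene that was pooled over all groups of the series. In that fit the unbound arrays of a tissue formed 1 group, whatever their line. They do not measure the spread of the compared arrays alone. In bulk RNA of this kind, fewer cells of a type and less RNA per cell cannot be told apart.

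Arrays of a population correlated at r of at least 0.981 across genes. Before scaling, the mean of the 18 hybridisation controls was 12.21, 12.07 and 11.71 in the mixed arrays, and 11.08, 10.80 and 12.38 in the mature arrays. The third mature array thus stood apart, and the shift by 1 constant for each group left this gap in place. Each population had been normalised by itself. Among expressed genes, 12.9% had the same value on all 3 mixed arrays and 4.61% on all 3 mature arrays, which narrows their spread. The scaled level of an undetected gene was 1.55 in the mixed, 2.21 in the mature and 2.43 in the unbound group. Across genes, r with the mean of the unbound arrays was 0.895 to 0.897 for the mixed arrays and 0.920 to 0.958 for the mature arrays.

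The genes of both drivers and both stage markers were measured first, as a check of the labels. Olig2 read 12.16, 12.07 and 12.001 in the 3 mixed arrays and 9.31, 8.53 and 10.65 in the 3 mature arrays. All mixed arrays lay above all mature arrays, and both populations lay above the unbound arrays, which ran from 3.82 to 5.31 with a median of 4.14. The difference was 2.58 (SE 0.35, n = 3 and 3 arrays, limma adjusted p 7.63e-10), or 5.98-fold. Cmtm5 read 11.75, 11.81 and 11.37 in mixed and 12.45, 11.92 and 13.17 in mature, with unbound arrays from 9.27 to 10.64 with a median of 9.71. The mature arrays were all higher than the mixed ones, but the difference of -0.86 (SE 0.40, limma adjusted p 0.0557) was not called. It was called at -1.09 under quantile normalization and at -1.02 without mature array 3.

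Pdgfra separated the populations far more widely than either driver. It read 13.49, 13.56 and 13.26 in mixed against 7.63, 6.97 and 7.21 in mature, and the unbound arrays lay between, from 8.53 to 8.93 with a median of 8.69. The difference was 6.16 (SE 0.28, limma adjusted p 2.48e-35), or 71.7-fold, and in mature cells Pdgfra was lower than in unbound RNA by a called margin. Such a margin was common. Of 10214 genes tested, 53.3% were called lower in mature TRAP than in unbound RNA, and the median difference was -1.10. Gpr17 read 13.41, 13.47 and 13.23 in mixed and 7.41, 7.19 and 7.57 in mature, where it was close to the unbound range of 6.79 to 7.51 with a median of 6.94. Its difference was 5.98 (SE 0.23, limma adjusted p 5.42e-40), or 62.9-fold. The markers thus went the way both labels say, high in the mixed population and far lower in the mature one. There Pdgfra lay below the tissue level, and Gpr17 lay close to it, with every array above the unbound median. Myelin genes such as Mbp were abundant in the mixed arrays too.

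**Figure D1:**
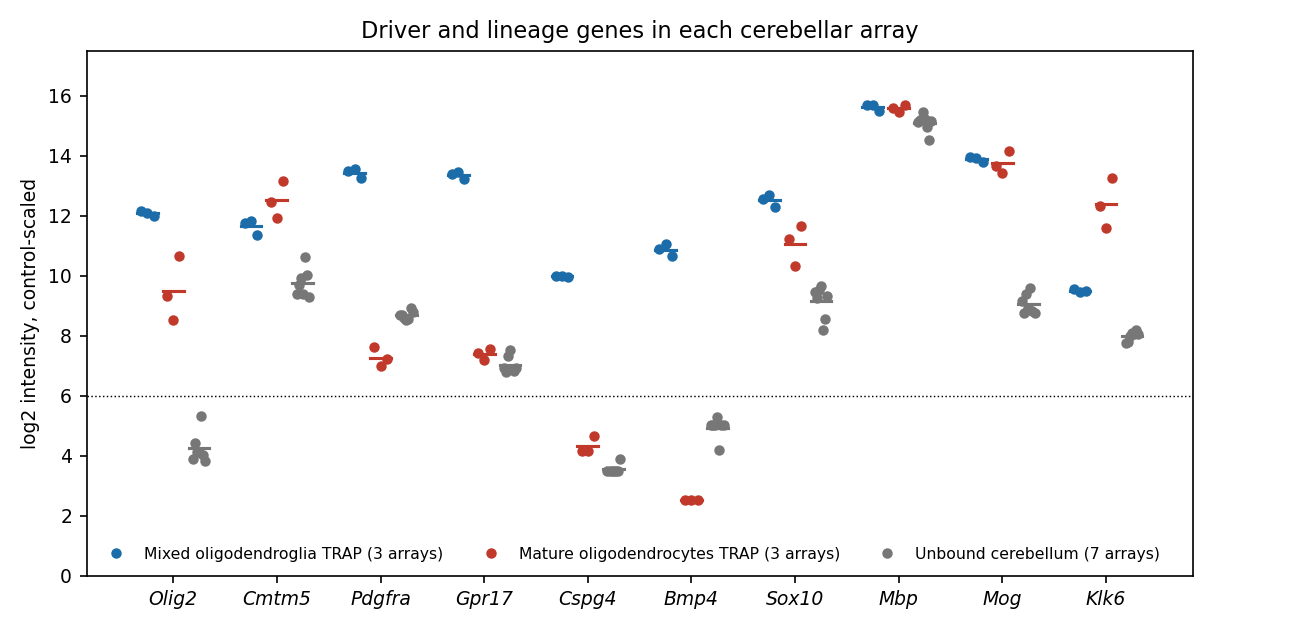
Scaled log2 intensity (vertical axis) of 10 genes in each cerebellar array: mixed oligodendroglia (3), mature oligodendrocytes (3) and unbound RNA (7), with bars at the group means and a dotted line at the expression minimum of 6. Pdgfra and Gpr17 sit near 13 to 14 in mixed and near 7 to 8 in mature, whereas Mbp overlaps between the populations.

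The comparison of the populations covered 4273 genes whose ribosome-bound level exceeded the unbound level in at least 1 of them. Of these, 1896 were called higher in mixed (44.4% of those tested) and 323 higher in mature (7.56%). Without the requirement of TRAP over unbound RNA, 9931 expressed genes were tested, of which 2626 (26.4%) were called higher in mixed and 1278 (12.9%) higher in mature. Members of the lists described next were chosen with earlier results of these data known, so their shares beside those of all genes are descriptive and no test. The lists were counted in this wider test. Its split depended on how the groups were set on 1 scale: 67.3% of the calls were higher in mixed with control scaling, 53.3% with quantile normalization (1972 and 1727 genes), 86.3% with no further scaling (4954 and 789) and 92.8% with equal medians (6819 and 531). The median difference over all genes was 0.37 with control scaling, 0.05 with quantile normalization, 0.97 without scaling and 1.41 with equal medians, and a change near these sizes has no settled direction. In the narrower test the higher-in-mixed share of calls was 85.4% with control scaling, 71.8% with quantile normalization (1772 and 697), 95.1% without scaling (4187 and 214) and 97.9% with equal medians (6200 and 136). Leaving out mature array 3 gave 1541 genes higher in mixed and 2350 higher in mature among all expressed genes, and 1338 and 645 in the narrower test. Leaving out mature array 2 gave 3703 and 821 among all expressed genes.

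Genes of oligodendrocyte progenitors had the largest median difference of the lineage lists. Of 18 measured members of the progenitor list, 17 were called higher in mixed and none higher in mature, and the median difference of the measured members was 5.24 against 0.37 for all expressed genes. The count was also 17 under each of the other 3 scalings, and 16 without mature array 3, where the difference of Ptprz1 was 0.88. A total of 9 members reached the minimum in the mixed population alone, so that a difference was built into their inclusion. Of the 9 that reached it in both populations, 8 were called higher in mixed with a median of 5.00, against 22.2% of all 8371 genes expressed in both. Cspg4, the NG2 proteoglycan, read 9.98, 9.99 and 9.96 in mixed, 4.17, 4.17 and 4.67 in mature and from 3.48 to 3.87 with a median of 3.49 in unbound RNA. It was at least 15.8-fold higher in mixed (difference 5.64, SE 0.19, limma adjusted p 5.45e-44), and the mature level was under the expression minimum.

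C1ql1, a secreted protein of the C1q family, had the largest difference of the list. It read 10.91, 10.90 and 10.88 in mixed and 2.27 in every mature array, near the 2.43 of the unbound arrays, so all the signal was in the mixed arrays, and it was at least 29.8-fold higher there. Matn4, a matrix protein, had the same form, with 9.23, 9.01 and 9.17 against 2.21 in each mature array. Lhfpl3 (5.20), Cacng4 (6.14), a subunit that regulates AMPA receptors, and Nxph1 (5.63), a secreted ligand of neurexins, were above the minimum in both populations. In the mature population Cacng4 and Nxph1 were lower than in unbound RNA, as were 53.3% of all genes tested. Ptprz1, a receptor phosphatase, differed least among the called members, at 1.58 (SE 0.33, adjusted p 2.14e-05). Its mixed arrays at 10.94, 10.99 and 10.77 were no higher than the unbound median of 11.29. Megf11 was the member without a call, with 9.0, 9.01 and 8.83 in mixed and 9.09, 9.65 and 8.39 in mature, and it was higher in unbound RNA than in either. The mean of its probe sets, in place of the brightest, gave a called difference of 1.01.

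The letters just upstream of 4 genes on which the comparison turns are shown here, Pdgfra and the transcription factor Sox6 for the genes higher in mixed and the protease Klk6 and the link protein Hapln2 for those higher in mature. Each stretch holds the 250 bases before the most upstream start in RefSeq (build GRCm38.p6), written 5′ to 3′ on the gene's strand. Capitals mark matches to CAGCTG, an E-box of the kind that basic helix-loop-helix factors such as Olig2 bind, or to ACAAAG, the core bound by SOX factors, both searched on both strands.
Pdgfra (chr5:75152001-75152250, plus strand): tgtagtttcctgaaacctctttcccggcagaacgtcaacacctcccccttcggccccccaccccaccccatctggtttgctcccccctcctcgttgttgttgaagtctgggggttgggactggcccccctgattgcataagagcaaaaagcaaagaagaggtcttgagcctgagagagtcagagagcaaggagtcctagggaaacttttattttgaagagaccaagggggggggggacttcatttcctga
Sox6 (chr7:116038745-116038994, minus strand): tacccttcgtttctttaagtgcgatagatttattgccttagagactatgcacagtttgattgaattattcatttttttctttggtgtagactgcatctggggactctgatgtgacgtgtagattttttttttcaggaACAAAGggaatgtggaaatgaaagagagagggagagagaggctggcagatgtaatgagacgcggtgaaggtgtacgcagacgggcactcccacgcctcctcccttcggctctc
Klk6 (chr7:43824294-43824543, plus strand): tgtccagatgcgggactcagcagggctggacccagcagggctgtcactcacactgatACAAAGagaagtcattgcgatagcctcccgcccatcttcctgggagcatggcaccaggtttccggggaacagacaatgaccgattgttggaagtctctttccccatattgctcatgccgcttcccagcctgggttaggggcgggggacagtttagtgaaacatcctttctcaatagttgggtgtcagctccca
Hapln2 (chr3:88027512-88027761, minus strand): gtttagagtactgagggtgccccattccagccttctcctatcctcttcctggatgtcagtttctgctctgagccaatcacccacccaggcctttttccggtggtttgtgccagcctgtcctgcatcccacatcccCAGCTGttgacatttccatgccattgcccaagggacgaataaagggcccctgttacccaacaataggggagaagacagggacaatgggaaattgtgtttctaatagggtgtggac
Pdgfra holds neither word in this window, Sox6 and Klk6 hold 1 ACAAAG each, and Hapln2 holds 1 CAGCTG. Over all 27025 RefSeq promoter windows of this length, 12.7% hold CAGCTG and 16.5% hold ACAAAG. Among the 14 progenitor genes with a window, 2 hold CAGCTG and 3 hold ACAAAG, and among 14 late mature genes 4 and 2 do. These matches describe the letters and say nothing about binding.

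Genes of committed and newly formed oligodendrocytes were also higher in mixed, by smaller amounts. Of 18 measured members, 14 were called higher in mixed and none higher in mature, with a median of 2.45 for the 17 tested (Casr lay under the minimum). Another 6 reached the minimum in mixed alone, so that a difference was built into their inclusion. Among the 11 members expressed in both populations 8 were called (72.7%), against 22.2% of all genes expressed in both. Under quantile normalization, and without mature array 3, 1 member was called higher in mature. Bmp4, a secreted growth factor made by cells at this stage, read 10.88, 11.04 and 10.67 in mixed and 2.51 in each mature array, which is at least 29.1-fold higher in mixed. The transcript 9630013A20Rik (4.74), Lims2 (4.59) and Fyn (3.69), a kinase that acts in early myelination, were also higher in mixed. Bcas1, a protein of early myelinating cells, was called at 1.34, with 13.87, 13.87 and 13.63 in mixed and 12.26, 12.06 and 13.03 in mature, and it was above unbound RNA in both. Enpp6, an enzyme that marks newly formed oligodendrocytes, read 9.79, 9.72 and 9.88 and 8.77, 8.84 and 9.28. All mixed arrays were above all mature ones, but the difference of 0.83 (adjusted p 0.00884) missed 2-fold. It was called without scaling (1.41), with equal medians (1.85) and without mature array 2 (1.08).

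**Figure D2:**
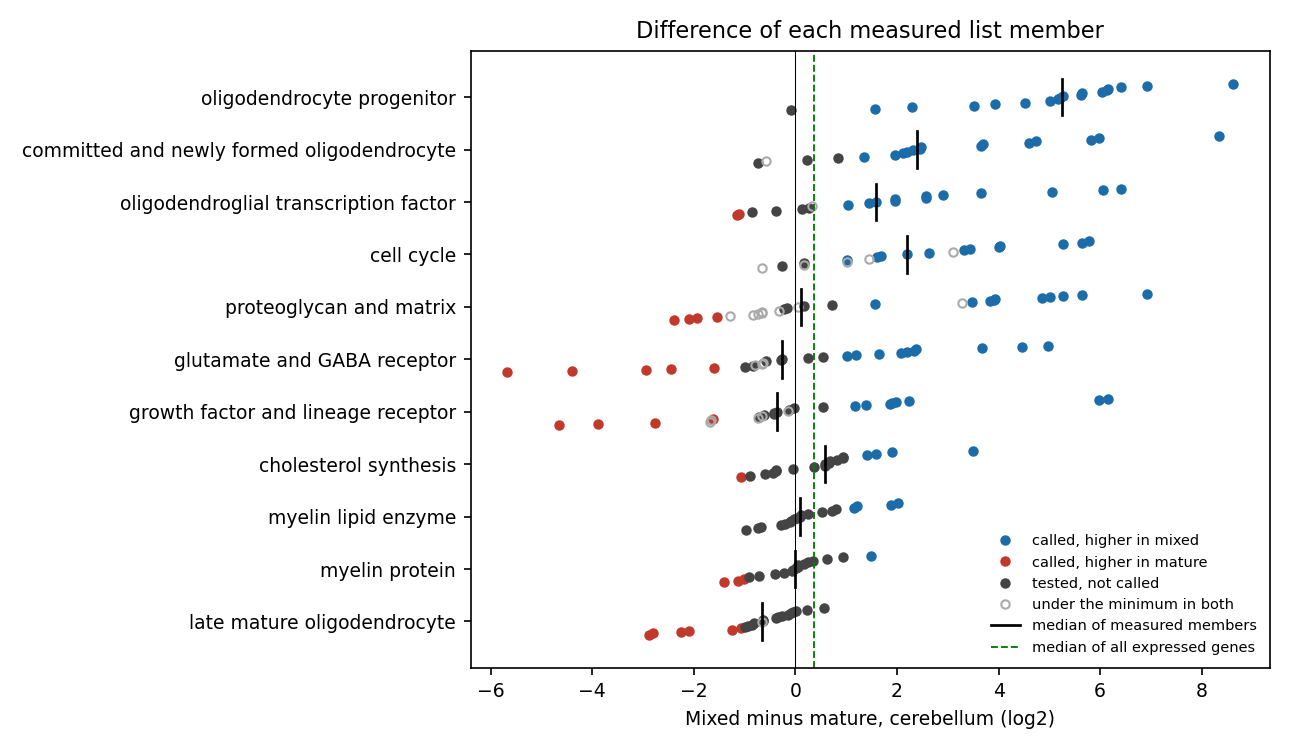
Difference of each measured list member, mixed minus mature (log2, horizontal axis), with 1 row for each gene list. Short black lines mark the median of the measured members and the green dashed line the median of all expressed genes (0.37). Progenitor genes lie almost all to the right, whereas myelin proteins centre on 0 and late mature genes lie to the left.

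Among 19 measured transcription factors of the lineage, 12 were called higher in mixed and 2 higher in mature, and 7 and 2 of the 13 expressed in both. Under quantile normalization or without mature array 3 the counts were 11 and 3, and with equal medians 14 and 0. The 7 and 2 were 53.8% and 15.4% of those expressed in both, against 22.2% and 8.39% of all such genes. The largest differences were those of the SOX factors Sox6, Sox11 and Sox4. Sox6 read 12.05, 12.19 and 12.02 in mixed and 6.66, 6.44 and 3.92 in mature, a difference of 6.42 (SE 0.27, limma adjusted p 2.48e-37). Sox11 differed by 6.05 and Sox4 by 5.04, and Sox5 by 2.57. These 4 genes were also lower in mature TRAP than in unbound RNA, as were 53.3% of all genes tested. Sox10 and Sox8, SoxE factors that act throughout the lineage, differed by 1.44 and 1.58, and both were above unbound RNA in both populations. The mean of the probe sets of Sox10 gave 0.89, which was not called. Nkx2-2 (1.96) and Tcf7l2 (3.66), which act around the start of differentiation, were higher in mixed. Olig1 read 15.11, 15.18 and 14.84 in mixed and 14.87, 14.62 and 14.87 in mature and was not called (0.26), in contrast to Olig2. Myrf, the activator of myelin genes, also overlapped between the populations, at 9.63, 9.71 and 9.58 and 9.56, 9.26 and 9.74 (difference 0.12). The 2 called higher in mature were St18 (-1.11) and Id4 (-1.14). Both stood lower in TRAP than in unbound RNA in each population, and neither call held without scaling (-0.53 and -0.56) or with equal medians (-0.10 and -0.13). Without mature array 2 they were -0.64 and -0.34 and not called, and leaving out mature array 1 or mixed array 1 ended both calls as well, mixed array 2 that of St18.

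Cell division genes were higher in mixed. Of 19 measured members of the cell cycle list, 12 were called higher in mixed and none higher in mature, and 5 stayed under the minimum in both populations. Over all expressed genes 26.4% were called higher in mixed and 12.9% higher in mature. A total of 8 members reached the minimum in mixed alone, so that a difference was built into their inclusion. Of the 6 expressed in both, 4 were called (66.7%), against 22.2% of all genes expressed in both. Ube2c, which acts in mitotic exit, read 8.42, 8.81 and 9.41 in mixed and 3.21, 2.72 and 3.40 in mature, or at least 7.36-fold higher. Birc5 (survivin) read 7.75, 7.90 and 8.51 against 2.42 in each mature array, and Ccnd1, a G1 cyclin, 11.19, 11.18 and 10.87 against 5.74, 6.70 and 4.97. Mki67 was called at 1.68 (SE 0.55, adjusted p 0.0064) with a wider spread, 5.44, 6.32 and 7.36 in mixed. Mixed array 3 was the highest of its group for 12 of the 17 members whose mixed arrays differed by over 0.1. The same array was highest for none of 13 such progenitor genes. Ccnd2 (-0.27) and Ccne1 (0.18) were not called.

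Myelin protein genes, by contrast, were mostly alike in level. Of 18 measured members, 1 was called higher in mixed and 3 higher in mature, with a median of -0.01. These were 5.56% and 16.7% of the list, against 22.2% and 8.39% of all genes expressed in both. All 18 were expressed in both populations, and 15 of them rose above unbound RNA in each, all but Mbp, Cnp and Nfasc. Mog, a protein of the outer myelin surface, read 13.97, 13.94 and 13.80 in mixed, 13.65, 13.43 and 14.15 in mature and from 8.74 to 9.57 with a median of 8.93 in unbound RNA. The mixed arrays lay inside the mature range, and the difference was 0.16 (SE 0.42, adjusted p 0.763). Mbp, the abundant protein of compact myelin, read 15.68, 15.70 and 15.50 and 15.58, 15.46 and 15.68, near the top of the array's range, and Mobp, Mal, Cldn11 and Plekhb1 differed by -0.04, -0.22, -0.41 and -0.06 without a call. The tetraspanin Cd9 was the member called higher in mixed, at 1.49. The connexins Gjc3 (-1.41) and Gjb1 (-1.02), which join glial cells, and Pmp22 (-1.13) were called higher in mature with control scaling. The call of Gjb1 was lost without any of mixed arrays 1 and 2 or mature arrays 1 and 3 (-0.91 to -0.98), and that of Pmp22 without mature array 1 (-0.94) or mature array 2. None of these 3 calls held without scaling (-0.83, -0.44 and -0.54) or with equal medians, which gave 9 members higher in mixed and 0 higher in mature. Quantile normalization gave 1 higher in mixed and 5 higher in mature.

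Enzymes that make myelin lipids gave a similar picture. Of 19 measured members, 4 were called higher in mixed and none in mature, with a median of 0.10. The 4 made up 21.1% of the list, near the 22.2% of all genes expressed in both populations. The called genes were the fatty acid desaturases Fads2 (2.02) and Fads1 (1.88), the fatty acid hydroxylase Fa2h (1.21) and the elongase Elovl7 (1.14). With quantile normalization, and also without mature array 3, 2 were higher in mixed and 3 higher in mature, and Fa2h and Elovl7 lost their calls. Equal medians gave 11 and 0. Ugt8a, which makes the myelin lipid galactosylceramide, read 13.75, 13.92 and 13.65 in mixed and 13.85, 13.53 and 13.83 in mature. Aspa, which releases acetate from N-acetylaspartate, was lower in mixed on every array, 11.43, 11.36 and 11.19 against 12.50, 11.98 and 12.44, with a difference of -0.98 (adjusted p 0.00238) that just missed 2-fold. It was called under quantile normalization (-1.41), without mature array 3 (-1.39) and without mixed array 3 (-1.06).

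Genes of cholesterol synthesis, which supplies myelin membrane, were mixed in direction. In the cholesterol pathway, 4 of 19 measured members were called higher in mixed and 1 higher in mature, with a median of 0.58. Of the 18 members expressed in both populations, 16.7% and 5.56% were called, near the 22.2% and 8.39% of all such genes. Tm7sf2, a late reductase of the pathway, stood out at 11.44, 11.30 and 11.29 in mixed and 7.61, 7.24 and 8.69 in mature, or 11.3-fold higher in mixed. It was above unbound RNA in mixed and below it in mature. Of the others, Lss (1.90), Mvk (1.59) and Hsd17b7 (1.41) were called, with Lss at 0.07 by the mean of its probe sets and Hsd17b7 at 0.51 without mature array 3, neither of them called. Insig1, a sterol-sensing brake on the pathway, was called higher in mature (-1.06), a call lost without scaling (-0.48) and without mixed array 1 or mature array 1 or 2 (-0.97, -0.98 and -0.92). Hmgcs1 (0.37), Idi1 (0.58), Fdft1 (0.68) and Sqle (0.93), enzymes spread along the pathway, were not called, although Sqle was called at 1.51 without scaling. Under quantile normalization the counts were 4 and 3, without mature array 3 they were 3 and 2, and without mature array 2 they were 7 and 0. Without scaling they were 11 and 0, and with equal medians 12 and 0.

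A set of late genes marked the mature population. Of 22 measured members of the late mature list, 6 were called higher in mature and none higher in mixed, with a median of -0.64 for the 21 tested. With quantile normalization, and also without mature array 3, 11 were higher in mature, whereas equal medians gave 4 higher in mature and 3 higher in mixed. Among the 20 expressed in both populations 5 were called higher in mature, against 8.39% of all genes expressed in both. Klk6, a secreted serine protease of oligodendrocytes, read 9.55, 9.47 and 9.50 in mixed, 12.34, 11.59 and 13.25 in mature and from 7.77 to 8.19 with a median of 8.06 in unbound RNA. Every mature array was above every mixed array, and the difference was -2.89 (SE 0.27, limma adjusted p 3.51e-16), or 7.39-fold. Hapln2, the link protein of the matrix at nodes of Ranvier, read 9.52, 9.26 and 9.44 in mixed and 11.22, 10.69 and 12.60 in mature (difference -2.10, SE 0.26). Il33, a nuclear cytokine that oligodendrocytes hold, read 9.65, 9.46 and 9.09 and 12.46, 11.64 and 12.55, and it was above unbound RNA in mature and not in mixed. Dock5 (-2.26), Ndrg1 (-1.24) and Anln (-1.07) were the others, of which Ndrg1 and Anln lost their calls without scaling (-0.66 and -0.48). The call of Anln was also lost without mixed array 1 or mature array 1 or 2 (-0.96, -0.87 and -0.81). All 6 were above unbound RNA in the mature population. Apod (-0.98), Car2 (-0.64), Ppp1r14a (-0.82) and Ninj2 (-0.64) were not called. Cryab, Septin4 and Gsn differed by less than 0.1.

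Markers of other cerebellar cells were read beside these groups. In the mixed arrays 12 of 13 microglial markers and 15 of 16 vascular markers sat at the lowest level of the group. The mature arrays read higher than the mixed ones for neurons and astrocytes, and lower than unbound RNA. The log2 of the summed intensity of 18 astrocyte markers was 13.33 to 13.66 in mixed, 14.91 to 15.46 in mature and 16.08 to 16.78 in unbound RNA. For 11 pan-neuronal markers it was 13.96 to 14.19, 14.79 to 15.89 and 16.90 to 17.38, for 12 granule neuron markers 14.53 to 14.72, 15.36 to 16.49 and 17.21 to 17.81, and for 7 Purkinje neuron markers 13.46 to 13.60, 15.58 to 16.58 and 16.92 to 17.70. No pan-neuronal or Purkinje marker was at the lowest level of either TRAP group, whereas Sox9 of the astrocyte list and Barhl1 and Slc17a7 of the granule list were at it in mixed. For microglia the sums were 6.61 in all mixed arrays, 8.91 to 9.85 in mature and 10.83 to 11.51 in unbound RNA. The groups did not overlap in any of these sums, and the mature arrays stood between the mixed and the unbound ones. The part of RNA from these cells in the genes called higher in mature was not tested.

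By gene, 15 of 18 astrocyte markers were called higher in mature and none higher in mixed, 17 under quantile normalization and 9 with equal medians, where Gfap was called higher in mixed. Over all expressed genes 12.9% were called higher in mature and 26.4% higher in mixed. A total of 7 astrocyte markers reached the minimum in mature alone, so that a difference was built into their inclusion. Of the 11 expressed in both populations 8 were called higher in mature, against 8.39% of all such genes. Aqp4, the water channel of astrocyte endfeet, read 8.43, 8.43 and 8.44 in mixed, 10.88, 11.67 and 10.004 in mature and from 12.47 to 13.49 with a median of 12.94 in unbound RNA. Among neuronal lists, 9 of 12 granule neuron markers and 6 of 7 Purkinje markers were higher in mature and none higher in mixed. Of those expressed in both populations, 7 of 8 granule and 6 of 6 Purkinje markers were higher in mature. For pan-neuronal and interneuron markers these were 5 of 9 and 3 of 4, with 1 of each list higher in mixed. Without scaling, and with equal medians, 1 Purkinje marker was higher in mixed. Pcp2, a Purkinje cell gene, read 10.07, 10.22 and 9.84 in mixed, 13.54, 14.19 and 13.29 in mature and from 14.08 to 15.48 with a median of 14.49 in unbound RNA. Of 11 pan-neuronal genes 7 were higher in mature and 1, Map2 (1.64), was higher in mixed, a call lost without mature array 3 (0.49). Of 8 Bergmann glia markers 3 were higher in mature, among them Gdf10 (-4.19), whereas Fabp7 (2.37), which progenitors also express, and Timp4 (2.04) were higher in mixed. The summed level of that list was 15.03 to 15.35 in mixed, 14.52 to 14.70 in mature and 14.92 to 15.91 in unbound RNA. Of 11 interneuron markers 6 were higher in mature (4 without mature array 2, 3 with equal medians) and 1, Lypd6 (3.09), higher in mixed. Few markers of the remaining cell types reached the minimum, so few were tested. Of those tested, 2 of 2 for microglia, 1 of 2 for vessels, 2 of 2 for fibroblasts and 3 of 4 for the choroid plexus were higher in mature and none higher in mixed, and no Schwann cell marker was tested. All of the called ones reached the minimum in mature alone, so that a difference was built into their inclusion. Without mature array 3 the microglial, vascular and fibroblast counts were 3, 3 and 4, and without mature array 2 they were 1, 1 and 1. The summed levels were 6.97 in mixed and 8.40 to 9.17 in mature for vessels, 6.18 to 7.11 and 9.21 to 9.66 for fibroblasts, 10.33 to 12.73 and 15.01 to 15.31 for the choroid plexus, and 3.58 to 3.78 and 5.64 to 5.68 for Schwann cells. In mixed, 6 of 7 choroid plexus markers were at the lowest level, and Ttr made up nearly all of that sum in both populations. Of the 4 Schwann cell genes 3 were at the lowest level in each population. Mature array 2 was the highest of its group for 11 of 11 granule, 10 of 11 pan-neuronal and 6 of 7 Purkinje markers that varied. Ttr, the abundant transcript of the choroid plexus, read 10.31, 12.72 and 11.70 in mixed and 15.19, 15.29 and 15.003 in mature and was not called (-3.58, SE 1.70, adjusted p 0.0602).

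**Figure D3:**
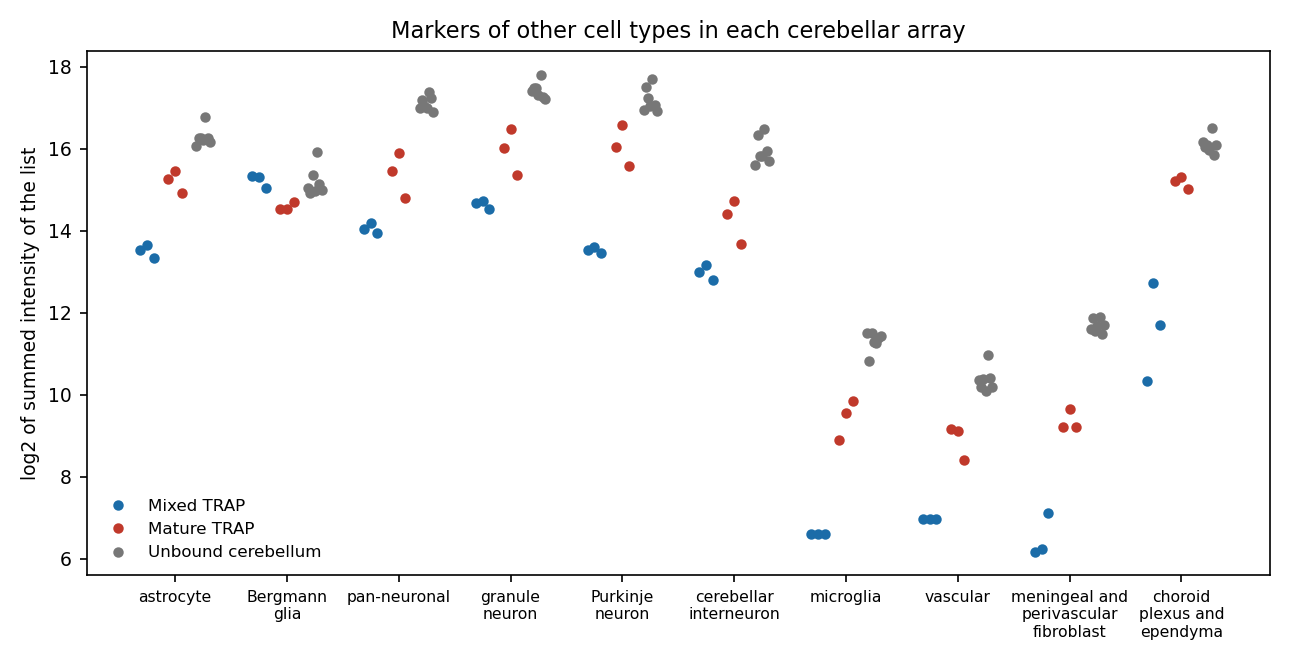
Log2 of the summed scaled intensity of each marker list of other cell types (vertical axis) in every cerebellar array, for mixed (3), mature (3) and unbound (7) arrays. For astrocytes, neurons and microglia the mature arrays lie between the mixed and the unbound arrays, whereas for Bergmann glia the mature arrays are lowest.

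Receptor genes were called in both directions. Those higher in mature were all lower there than in unbound RNA, as were 53.3% of all genes tested. Of 25 measured growth factor and lineage receptors, 8 were called higher in mixed and 4 higher in mature, beside 26.4% and 12.9% of all expressed genes. Beside Pdgfra and Gpr17, those higher in mixed were Lingo1 (2.24), a brake on differentiation, Notch1 (1.98), Gpr37l1 (1.91), Ednrb (1.86), Ntrk3 (1.40) and Erbb3 (1.17), a neuregulin receptor, of which Erbb3 lost its call without mature array 3 (0.77) and under quantile normalization (0.88). The 4 higher in mature, Fgfr1, Fgfr3, Ret and S1pr1, fell short of unbound RNA in the mature population by a called margin. Without mature array 3 the counts were 6 and 7, and without mature array 2 they were 8 and 2. Among the 15 expressed in both, 7 were higher in mixed (46.7%) and 0 higher in mature, against 22.2% and 8.39% of all genes expressed in both.

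Of 25 measured glutamate and GABA receptor genes 10 were higher in mixed and 5 higher in mature, and without mature array 3 they were 7 and 9. Among the 14 expressed in both, 5 and 2 were called (35.7% and 14.3%), against 22.2% and 8.39% of all genes expressed in both. The AMPA receptor subunit Gria4 (2.38), the kainate receptor subunits Grik1, Grik3, Grik4 and Grik5 (1.20 to 2.33), the metabotropic receptor Grm5 (4.97) and the NMDA receptor subunit Grin3a (4.46) were higher in mixed. Gria1, Grin2c, Gabra2, Gabra6 and Gabrb1 were higher in mature, with differences from -5.68 (Grin2c) to -1.60 (Gabra6), and each was lower in mature TRAP than in unbound RNA. The part of neuronal and astrocyte RNA in the 4 and 5 receptor genes higher in mature was not tested.

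Of 25 potassium channel and transporter genes 5 were higher in mixed and 6 higher in mature, with 10 higher in mature under quantile normalization or without mature array 3 and 3 without mature array 2. Equal medians gave 12 and 3. Among the 20 expressed in both populations, 15% were higher in mixed and 30% higher in mature, against 22.2% and 8.39% of all genes expressed in both. Kcnh8 read 7.81, 8.13 and 7.90 in mixed and 2.21 in each mature array, and Kcnj16 (4.07), Slc1a1 (3.12), a glutamate transporter, and Kcnk2 (2.25) were also higher in mixed. Slc45a3, a sugar transporter, was higher in mature at 9.14, 8.54 and 9.48 against 6.67 in each mixed array, and it was above unbound RNA in both populations. The other 5 higher in mature, Atp1b1, Kcnab1, Kcna2, Kcnk1 and Kcnc1, were lower in mature TRAP than in unbound RNA, as were 53.3% of all genes tested.

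Extracellular matrix genes went both ways. Of 26 measured members, of which 18 reached the minimum, 10 were called higher in mixed and 4 higher in mature. Among the 12 expressed in both populations, 5 were higher in mixed and 3 higher in mature, with a median of 0.44 against 0.35 for all genes expressed in both. These were 41.7% and 25% of the 12, against 22.2% and 8.39% of all genes expressed in both. Besides Cspg4 and Matn4, the proteoglycans Vcan (5.28), Cspg5 (5.0), Bcan (3.47), Ncan (3.83), Sdc3 (4.86) and Gpc5 (3.92) and the glycoprotein Tnr (3.92) were higher in mixed. Vcan read 10.65, 10.81 and 10.55 in mixed, 5.22, 5.82 and 5.13 in mature and from 7.58 to 8.74 with a median of 7.92 in unbound RNA. Higher in mature were Hapln2, Spock3 (-1.54), Hapln4 (-2.39) and Spock1 (-1.94). Of these, Hapln4 and Spock1 were lower in mature TRAP than in unbound RNA, as were 53.3% of all genes tested.

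The largest differences were read for the 15 genes at each end that were above unbound RNA on the higher side and whose arrays did not overlap. At the mixed end the differences ran from 7.30 (Neto1) to 12.22 (Cryl1), and 13 of the 15 lay under the minimum in mature cells. Meox1, a homeobox factor, read 12.24, 12.42 and 11.85 in mixed, 2.36 in each mature array and 2.44 in each unbound array. Susd5 (9.20), C1ql1, Inava (8.04) and Lmcd1 (7.43) had the same form, with the unbound arrays at their lowest level. Vxn, a factor of neural differentiation, read 14.11, 14.33 and 13.86 in mixed, 7.0, 6.78 and 6.12 in mature and from 6.64 to 8.10 with a median of 7.51 in unbound RNA. Of the 15, 10 were at least 2-fold higher in mixed in the cortex as well, and 8 had their highest mean of all 24 populations in cerebellar mixed oligodendroglia. Cryl1, Ptbp1, Ptprk, E2f5 and Meox1 were under 2-fold in the cortex.

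A group of 5 among the 15, Cryl1, Ptbp1, Ptprk, Pik3cd and E2f5, had a different form and read high in unbound cerebellum of other lines and low in RNA of the cmtm5 line of both kinds. Cryl1, a crystallin-related enzyme, read 14.40, 14.40 and 14.64 in mixed and 2.22, 2.35 and 2.22 in mature. In unbound RNA it read 6.28 in the array of the cmtm5 line and 12.62 to 14.70 in the 6 arrays of other lines. In unbound cortex it read 1.94 in the cmtm5 line, 6.80 in the olig2 line and 9.29 to 13.22 in the rest. Ptbp1, an RNA-binding splicing regulator, read 12.81, 12.78 and 13.22 in mixed, 2.21, 2.21 and 2.23 in mature, 7.95 in unbound RNA of the cmtm5 line and 11.35 to 13.38 in the other lines. All 3 other expressed probe sets of Cryl1 and the 1 of Ptprk moved the same way by at least 2-fold, whereas neither of the 2 of E2f5 did. Ptbp1 and Pik3cd had no other expressed probe set, so that each difference rests on 1, and 1 of the unexpressed probe sets of Ptbp1 went the other way (-1.30).

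At the mature end the differences ran from -7.10 (1700063D05Rik) to -5.53 (Ctxn3), and 14 of the 15 lay under the minimum in mixed cells. Only 4 of these 15 were at least 2-fold higher in mature in the cortex as well. The highest mean of all 24 populations was in cerebellar mature oligodendrocytes for 5. In 10 of the 15 (Ndufs5, Malat1, Gm26782, Abhd14b, Pcp4l1, Etnppl, Nell2, Cep85, Spata5l1 and Ctxn3) the unbound array of the cmtm5 line was at least 2-fold above every other unbound array. Malat1, a nuclear long non-coding RNA, read 8.25, 7.93 and 7.93 in mixed and 14.81, 14.47 and 12.75 in mature, and 16.58 in unbound RNA of the cmtm5 line against 12.26 to 15.07 elsewhere. All 5 of its other expressed probe sets moved the same way. Nell2, a secreted protein of neurons, read 1.55 in the mean of the mixed arrays and read 7.44, 7.20 and 7.10 in mature, 8.28 in unbound RNA of the cmtm5 line and 2.51 to 4.53 in other lines. Its other probe set had means of 1.55 in mixed, 2.22 in mature and 6.11 in unbound RNA, so it gave no signal in mature. The other probe set of Cep85 was under the minimum in both populations, at 4.69 in mixed and 5.50 in mature, with 6.09 in unbound RNA. Smim5, Ltf, Pou2af1 and 1700063D05Rik were near the lowest level in all 7 unbound arrays. Smim5 read 8.56, 7.47 and 8.12 in mature and 1.55 in each mixed array. Ctsc, a lysosomal protease, read 11.01, 9.63 and 3.94 in mature, so that 1 array was far below the others.

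Across all expressed genes the single unbound array of the cmtm5 line stood at least 2-fold outside the range of the other 6 for 397 of 9931 genes, compared with 5 to 89 genes for each other unbound array. Among the 323 genes called higher in mature, 61 (18.9%) were such genes with the cmtm5 array on the high side, against 203 of the 4273 tested (4.75%). Among the 1896 called higher in mixed, 32 (1.69%) had it on the low side, against 39 of those tested (0.913%). Whether the cmtm5 mice or this preparation set these levels was not tested. In the unbound cortex array of the cmtm5 line, Cryl1 (1.94), Ptbp1 (5.17), Ptprk (1.87), Pik3cd (5.18) and E2f5 (7.38) were again below all other lines. Of the mature-end genes, Ndufs5, Malat1, Abhd14b, Pcp4l1 and Cep85 lay there inside the range of lines other than cmtm5 and olig2. Gm26782, Etnppl, Nell2, Spata5l1 and Ctxn3 lay above that range, of which Nell2 (12.40, range up to 12.38) and Ctxn3 (6.69, range up to 6.65) only just. In the unbound cortex array of the olig2 line Nell2 read 12.68, higher than in that of the cmtm5 line. In the lineage lists this array was less far from the others but often outside their range. It lay at least 2-fold outside for none of the 18 progenitor, 18 committed-cell, 22 late mature and 18 myelin protein genes measured. It lay outside by any amount for 9 of the progenitor, 8 of the committed-cell, 12 of the late mature and 9 of the myelin protein genes, among them Lhfpl3, Nxph1, Cacng4, Bmp4, Il33 and the driver gene Cmtm5, as well as Olig2. Pdgfra read 8.56 in it, Gpr17 6.89, Klk6 8.06 and Hapln2 8.11, inside the range of the others. Among the other genes described, S1pr1, Grm5, Spock1 and the astrocyte genes Slc1a2, Ntsr2 and Pla2g7 were at least 2-fold outside.

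**Figure D4:**
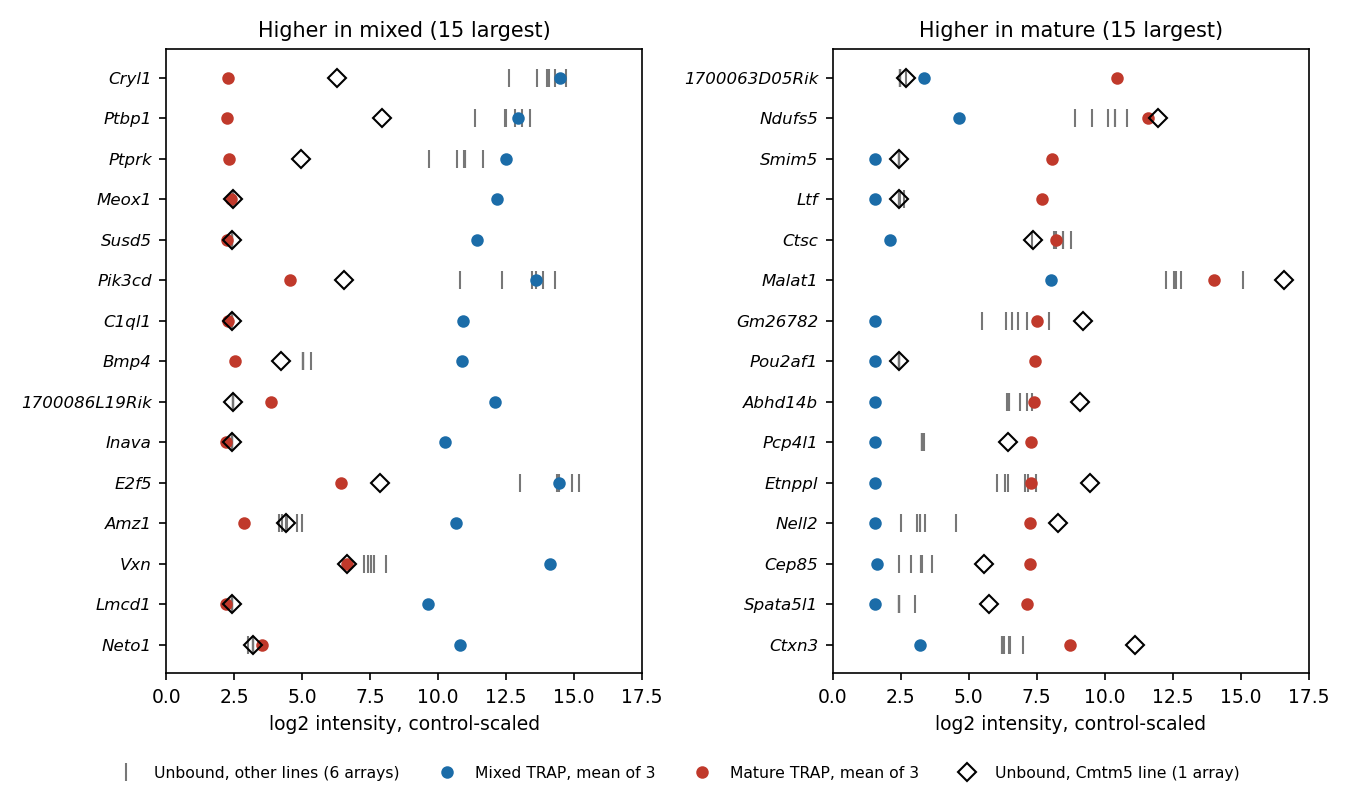
Scaled log2 intensity (horizontal axis) of the 15 genes with the largest difference in each direction: means of the mixed (blue) and mature (red) arrays, the 6 unbound arrays of other lines (grey ticks) and the 1 unbound array of the cmtm5 line (open diamonds). For Cryl1 and Ptbp1 the diamond lies well below the ticks, and for Nell2 and Ctxn3 well above them.

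Against unbound cerebellum, 1874 of 10552 genes (17.8%) were called higher in mixed TRAP and 4124 (39.1%) higher in unbound RNA. For mature TRAP the counts were 860 of 10214 (8.42%) and 5440 (53.3%), and without mature array 3 they were 1221 and 3264. Both comparisons use the same unbound arrays. The largest gains in mixed were Meox1, 1700086L19Rik, Ctxn1, Susd5, 9630013A20Rik and Fam89a. Ctxn1, a small membrane protein, read 12.49, 12.57 and 12.14 in mixed and from 2.93 to 3.28 with a median of 2.94 in unbound RNA, and 7.48, 6.78 and 6.68 in mature. In mature TRAP the largest gains were Ninj2, Smco3, 1700063D05Rik, Tnni1, Gjc3 and 2700046A07Rik. Ninj2, an adhesion molecule, read 11.02, 10.27 and 11.74 in mature and from 2.44 to 2.59 with a median of 2.44 in unbound RNA, and 10.41, 10.39 and 10.33 in mixed, with no called difference. Smco3 was higher in mature than in mixed at 11.54, 10.85 and 11.71 against 7.26, 7.26 and 7.47 (difference -4.03, SE 0.49, adjusted p 1.91e-11). The late mature list had 19 of 22 measured members above unbound RNA in mature and 16 in mixed, while the progenitor list had none in mature, 10 below unbound RNA there, and 16 above it in mixed.

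The same comparison exists in cortex, from the same 2 lines with 3 arrays each, so the difference between the regions could be tested as an interaction over 7301 genes. Mixed minus mature was called more positive in cerebellum for 1131 (15.5%) and more positive in cortex for 1512 (20.7%). Larger is used below in this signed sense, so a gene with a less negative difference in cerebellum counts as larger there. Without mature cerebellum array 3 the counts were 737 and 2624, and without array 2 they were 1503 and 996. Pdgfra read 13.87, 13.88 and 13.88 in cortical mixed and 10.13, 10.13 and 10.16 in cortical mature arrays. The cortical difference of 3.74 was smaller than the cerebellar one by 2.43 (SE 0.39, limma adjusted p 1.81e-07). The mixed arrays of both regions lay within 1 unit of each other, and the mature arrays were higher in cortex. With the mean of its probe sets in place of the brightest, that interaction was 0.45 and was not called. Gpr17 had the same form, with 9.33, 9.33 and 9.33 in cortical mature arrays and an interaction of 1.85 (SE 0.33, adjusted p 1.57e-06). Of the 18 measured progenitor genes 10 had a larger difference in cerebellum, 3 a larger one in cortex and 5 no called difference. C1ql1 (5.34), Pcdh15 (3.18) and Cacng4 (3.04) were the largest of the 10, whereas Nxph1 and Cspg5 lost the call without mature cerebellum array 3 (0.48 and 0.56). Vcan (-2.64), Ptprz1 (-1.93) and Megf11 (-1.50) went the other way, and Vcan read 2.30, 2.03 and 2.03 in cortical mature arrays. The call of Megf11 was lost without scaling (-0.97) and without mature cerebellum array 2 (-0.89).

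**Figure D5:**
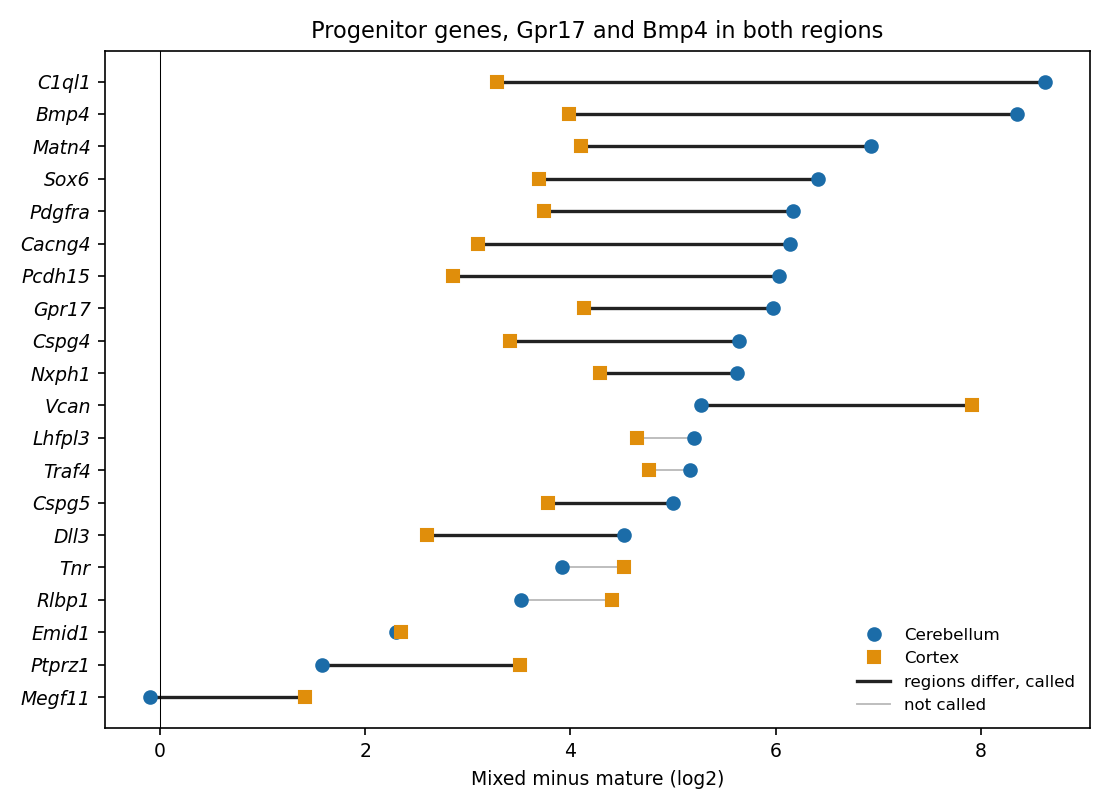
Mixed minus mature difference (log2, horizontal axis) in cerebellum (blue circles) and cortex (orange squares) for the 18 measured progenitor genes, Gpr17 and Bmp4. Dark bars join genes whose regions differed by a called interaction. C1ql1 and Bmp4 differ most toward cerebellum and Vcan toward cortex.

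For the late mature list, 7 of 21 tested members had a called interaction, all toward a less negative difference in cerebellum. Klk6 read 4.55, 4.52 and 4.52 in cortical mixed and 9.86, 9.86 and 9.86 in cortical mature arrays, a difference of -5.33 against -2.89 in cerebellum (interaction 2.44, SE 0.38, adjusted p 9.84e-08). The cerebellar mixed level was above the cortical mixed level on every array. Hapln2 (2.11), Apod (1.71), Dock5 (1.55) and Anln (1.43) went the same way, of which Anln lost its call without mature cerebellum array 3 (0.98) and Apod with the mean of its probe sets (0.07). All 13 astrocyte markers tested had a mixed minus mature difference more positive in cortex, with a median interaction of -4.15. The other 5 of the 18 were not above unbound RNA in any population at the minimum and were not tested. In cerebellum 17 of the 18 were called below unbound RNA in mixed TRAP and 14 in mature TRAP. Entry to the test thus rested largely on cortical TRAP, so their shared direction was partly built into their inclusion. The summed level of the whole astrocyte list was 15.42 to 15.79 in mixed and 14.59 to 14.84 in mature arrays of the cortex, the reverse order of the cerebellum, and its part in the other interactions was not tested. Hes5, a Notch target that both progenitors and astrocytes express, read 13.58, 13.12 and 13.29 in cortical mixed arrays and 6.89, 6.86 and 6.86 in cerebellar ones, and its difference was larger in cortex (-2.25).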

How the data were processed

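The samples were profiled on Affymetrix mouse arrays from 15 ng of RNA, after 2 cycles of amplification and biotin labelling. Per the labels' protocols, ribosome-bound RNA was purified with Trizol, treated with DNase and cleaned on a column. The authors deposited intensities made with GCRMA (version not given), per the submitters' processing notes, and per the series text each group was normalised by itself. That text advises scaling on biotinylated controls and a filter on TRAP over unbound RNA, and both were used.

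Intensities were floored at 1, taken to log2 and shifted group by group to an equal mean of the 18 control probe sets. The array has 45101 probe sets, of which 34958 had 1 gene symbol, 932 several and 9211 none. The probe set with the highest mean stood for each of 18194 genes, 9012 of which had more than 1. All arrays of the series entered 1 limma fit (3.58.1, in R 4.3.3 with the data.table package, 1.17.8; a trended prior, Benjamini-Hochberg adjustment), which was tested on simulated data. In the narrower comparison a gene also had to be above unbound RNA, in the mean, in the population where it was higher. The interaction tested genes expressed, and above the unbound RNA of their own tissue, in any of the 4 populations.

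Named genes were the drivers, the stage markers, list members, the 15 largest called differences in each direction with arrays that did not overlap, the 6 largest interactions in each direction and the 6 largest gains over unbound RNA in each population. The members and lists were chosen with earlier results of these data known. The alternatives were other scalings, expression minimums, probe set rules, tests, unbound lines and left-out arrays. Scaling each array on its own controls, and calls shared by control scaling and quantile normalization, were chosen after seeing the data. The number of arrays limits the precision.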

Additional observations from a re-analysis of the deposited data

Results flagged for a closer look

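Among 7 unbound cerebellum arrays, 1 array stood far from the others for 12 of 27 genes read in this way. Chance gives about 1 in 20 for genes taken at random, which does not hold here, because many of the 27 were read for their large difference against arrays of the same cmtm5 line. Over all expressed genes the cmtm5 array lay at least 2-fold outside the others for 397 of 9931. The array of the cmtm5 line was the one apart for all of them except the myelin gene Mobp, for which 1 array of the Purkinje line was lowest at 10.66 (next 11.61). The cmtm5 array was lowest for Cryl1 at 6.28 (next 12.62), Ptbp1 at 7.95 (next 11.35), Ptprk at 4.97 (next 9.68) E2f5 at 7.85 (next 13.01) and Bmp4 at 4.21 (next 5.01). It was highest for Nell2 at 8.28 (next 4.53), Ctxn3 at 11.11 (next 7.0), Pcp4l1 at 6.46 (next 3.35), Abhd14b at 9.07 (next 7.31) Spata5l1 at 5.76 (next 3.01) and the driver gene Olig2 at 5.31 (next 4.42).

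The difference between mixed and mature cells was not the same in cerebellum and cortex for the following genes, by the interaction in limma. Mixed minus mature was more positive in cerebellum for Cryl1 (11.39), Ptbp1 (10.77), Ptprk (10.37), Meox1 (8.81), E2f5 (8.32), Tox (7.75), Pdgfra (2.43) and Gpr17 (1.85). It was more positive in cortex for Nell2 (-10.31), Malat1 (-10.10), Dmrta1 (-9.66), Gm266 (-9.30), 2900052N01Rik (-8.41) and Slc22a4 (-8.23).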

How the results depend on the processing

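Of the counts of calls recomputed under the alternatives, 142 stayed within 1.5 times the value given and 50 did not. Scaling moved most. In the narrower comparison of mixed and mature cells, genes higher in mixed and in mature numbered 4187 and 214 without scaling, 6200 and 136 with equal medians, and under quantile normalization 697 were higher in mature. Over all expressed genes the counts were 4954 and 789 without scaling and 6819 and 531 with equal medians. For mixed TRAP against unbound RNA, genes higher in TRAP and in unbound RNA numbered 3770 and 2349 without scaling, 2988 and 2710 with quantile normalization and 5418 and 1466 with equal medians. For mature TRAP they were 1992 and 2418 with quantile normalization, and 3520 were higher in unbound RNA with equal medians. The interaction gave 2398 larger in cerebellum and 864 larger in cortex without scaling, 3749 and 692 with equal medians, and 1897 larger in cerebellum with quantile normalization. Calls shared by control scaling and quantile normalization numbered 2710 and 2417 higher in unbound RNA than in mixed and mature TRAP, and 1000 interactions larger in cortex. With no expression minimum 798 (narrower comparison) and 2501 (all expressed genes) were higher in mature and 2333 interactions were larger in cortex, and with a minimum of 8 these were 187, 721 and 955. The mean of all probe sets gave 1232 and 1568 genes higher in mixed and 709 interactions larger in cerebellum, and turned the interaction of Sdc3 to -0.71. A test against a 2-fold bound (treat) gave 1235 and 186, then 1426 and 725 over all expressed genes, and interactions of 475 and 573. Without the TRAP over unbound requirement 1278 genes were higher in mature. Leaving out 1 array at a time gave 1338 to 2233 genes higher in mixed and 242 to 645 in mature, over all expressed genes 1541 to 3703 and 821 to 2350, for mixed TRAP 1728 to 2037 and 3902 to 4362, for mature TRAP 732 to 1221 and 3264 to 6420, and for the interaction 737 to 1503 and 996 to 2624. Arrays share only a replicate number: deviations of same-numbered mixed and mature arrays correlated at -0.075, 0.063 and 0.040, and not every array correlated best with its own number. With the replicate block, 1851 genes were higher in mixed and 294 in mature (2471 and 1164 over all expressed genes), and 1074 and 1446 interactions were called. The cause of these shifts was not tested. Genes near a 2-fold difference have no settled call, and genes under the minimum have only a bound.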

Other observations

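A few genes outside the myelin lists were read in mature oligodendrocytes and hardly in the rest of the tissue. Ltf, which encodes the secreted iron-binding protein lactoferrin, read 7.56, 6.61 and 8.93 in mature cerebellum, 1.55 in the mean of the mixed arrays and a median of 2.43 in unbound RNA. It read 9.10, 7.36 and 5.99 in mature cortex, so both regions gave it, and its mean in cerebellar mature cells was the highest of the 24 populations. Pou2af1, a transcriptional coactivator best known from B cells, read 7.29, 7.09 and 7.93 in mature cerebellum, 1.55 in mixed and 8.71, 6.42 and 5.44 in mature cortex. Smim5, a small membrane protein, differed in this respect, with 8.56, 7.47 and 8.12 in mature cerebellum and 2.13 in each mature array of the cortex. Tnni1, a troponin of slow muscle, was present in both populations of both regions, with means of 9.09 in mixed and 10.11 in mature cerebellum, 8.41 and 9.96 in cortex, and a median of 2.63 in unbound cerebellum. Ltf, Pou2af1, Smim5 and Tnni1 each rest on 1 probe set, and for Ltf, Pou2af1 and Smim5, read in the cmtm5 line and not in the olig2 line, the line and the cell type cannot be told apart here.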
